A study of Homo sapiens with 2 samples.

Results

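HepG2, a human liver cancer cell line, was sequenced as polyadenylated RNA in 2 libraries, and 10 genes of the actin cytoskeleton and of serum response factor (SRF) are described here. They are the actins ACTB, ACTG1 and ACTA2, the tropomyosins TPM1, TPM2, TPM3 and TPM4, the myosin light chain MYL9, the adhesion protein VCL and the LIM-domain protein FHL2. They were picked by name, with results of these libraries known, and are 10 of the 11582 genes whose mean abundance over both libraries reached 1 TPM. Both libraries come from HepG2 cells that carry a doxycycline-inducible SAMD4B cassette. By their titles, 1 library was grown without doxycycline (Dox) and the other with Dox for 48 h, at 1 µg/ml. The treatment protocol in the labels names Dox for both libraries, so the groups rest on the titles and on a treatment entry that only the library with Dox carries. SAMD4B codes for an RNA-binding protein related to fly Smaug. Each group is a single library, so replicate spread is unknown, no test was made, and each difference is one between these 2 libraries. The promoter of the cassette, and whether the line is 1 clone, are not given in the labels, and a library of Dox-treated cells without the cassette was not analysed here, so Dox and SAMD4B cannot be told apart.

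Actin monomers polymerise into filaments, and ACTB and ACTG1 are the cytoplasmic forms made by nearly every cell. Tropomyosins are coiled-coil dimers that lie along the filament and control which motors and binding proteins reach it. Each tropomyosin gene gives several proteins through alternative starts and exons. SRF is a transcription factor that binds a DNA element called the CArG box. It works with the cofactors MRTFA and MRTFB, which are held back by unpolymerised actin, or with ternary complex factors of the ELK family, which respond to growth signals. Genes of actin, tropomyosin, vinculin and FHL2 are known MRTF-SRF targets.

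The unit is TPM, a transcript abundance that is corrected for length and adds up to the same total in each library. In RNA from a whole culture, fewer cells that express a gene and less RNA per cell cannot be told apart. A gene's level is the sum over its matched transcripts. A fold change is log2((TPM with Dox + 1)/(TPM without Dox + 1)). Low TPM values fall on multiples of what 1 fragment is worth, and the size of that step gave estimates of 18258864 fragments without Dox and 23591563 fragments with Dox. A fragment ratio compares a gene's estimated fragments in the library with Dox to those in the library without, each divided by depth. Its 95% interval is exact binomial (Clopper-Pearson), covers counting error only, and rests on the estimated depth. SAMD4B itself was at 47.5 TPM without and 261 TPM with Dox. All 8 hepatocyte markers examined, such as AFP and ALB, were present, at 64.5 TPM or more. Their sum was 24784 TPM without and 22340 TPM with Dox, with a median fold change of -0.15, and 1 of the 8, APOB, was higher. Their part in the differences described below was not tested. Of 8 smooth muscle markers, MYOCD was listed at 0 in both libraries, and MYH11, CNN1, LMOD1 and DES stayed below 0.3 TPM. The others were TAGLN at 48.7 and 66.4 TPM, SMTN at 48.1 and 63.3 TPM, and ACTG2 at 0.06 and 0.78 TPM.

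RefSeq promoter windows of 300 bases (GRCh38.p14, 250 before and 50 after a start) were available for 8 of the 10 genes, in 16 windows, and not for ACTB or MYL9. The exact CArG box, a motif of 10 bases searched on both strands, was found for ACTG1, FHL2 and TPM4. That is 3 of 8 genes, beside 137 of the 9047 compared genes with a window (1.51%) and 454 of all 35116 windows (1.29%). The genes were picked partly as SRF targets, so the share is a description. The boxes are shown because they place the SRF element next to particular starts. Each line below gives 30 bases, 5′ to 3′ on the strand of the gene, with the CArG box in capitals.
ACTG1, chr17:81512874-81512903, minus strand: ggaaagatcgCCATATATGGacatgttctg
FHL2 internal start, chr2:105399091-105399120, minus strand: gcgtgcatctCCTTATATGGtcaaatgaca
FHL2 distal start, chr2:105438595-105438624, minus strand: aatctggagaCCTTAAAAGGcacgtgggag
TPM4 distal start, chr19:16067355-16067384, plus strand: aatcctaggtCCAAATAAGGcgagggctgc

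The boxes begin 94 bases before the ACTG1 start, 59 before the internal FHL2 start, 101 before the distal FHL2 start and 173 before the distal TPM4 start. Transcripts that begin within 100 bases of the ACTG1 start held 1151 TPM without Dox and 1597 TPM with Dox, which is nearly the whole gene. The internal FHL2 start held 11.9 and 17.7 TPM, and the distal FHL2 start held 0 in both libraries. FHL2-211, at 2.96 and 8.12 TPM, begins upstream of the internal box, at 105399224, and is not in these sums. The distal TPM4 start held 0.48 and 0.16 TPM. Nearly all TPM4 was thus listed from a start other than the one beside the box. The available windows of TPM1, TPM2, TPM3, VCL and ACTA2 held no exact box; the distal starts of TPM1 and TPM3 had no window and were not searched. The ACTA2 window at its main start held 2 sites that differ from the box by 1 base, the TPM4 window at its used start (16076495) held 1, and 18.9% of all windows hold a box or such a site. The ACTG1 sequence before its start, chr17:81512800-81512979 on the minus strand, with the box in capitals, reads
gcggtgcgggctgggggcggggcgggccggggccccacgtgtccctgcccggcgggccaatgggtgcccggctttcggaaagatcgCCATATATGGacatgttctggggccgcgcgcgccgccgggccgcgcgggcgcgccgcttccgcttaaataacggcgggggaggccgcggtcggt

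Of the 10 genes, 9 were higher in the library with Dox and 1, ACTA2, was lower, while 53% of all compared genes were higher by any amount. The median fold change of the 10 genes was 0.45 on the log2 scale, beside 0.02 for all 11582 genes. FHL2 and TPM4 were at least 1.5-fold higher, beside 5.32% of all genes, and ACTA2 was at least 1.5-fold lower, beside 3.9% of all genes. None was 2-fold higher or lower, beside 1.62% and 0.967% of all genes. At 1.25-fold, a step chosen after the values were seen, 6 of the 10 were higher (ACTG1, TPM2, TPM4, MYL9, VCL and FHL2), beside 15.3% of all genes. The genes were chosen with this contrast known, so these counts describe the set and nothing is read from them. Together the 10 genes made up 0.357% of all TPM in the library without Dox and 0.448% in the other.

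**Figure D1:**
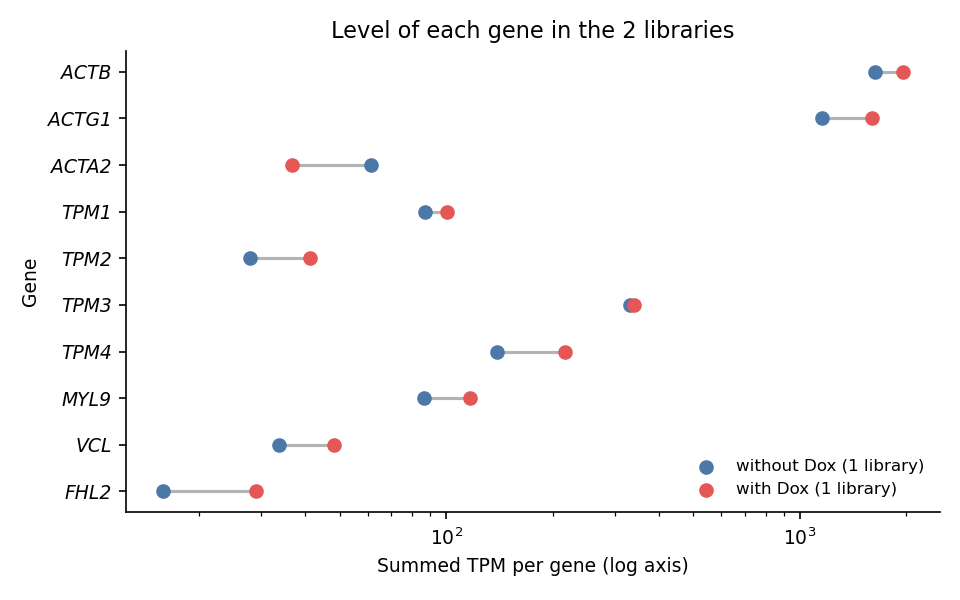
Summed TPM of each of the 10 genes (log axis) in the library without Dox (blue) and the library with Dox (red), 1 library per group and so no error bars. ACTA2 is the 1 gene whose red point lies left of the blue one, and the points of TPM3 nearly coincide at 331 and 341 TPM.

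ACTB, the beta-actin gene (ENSG00000075624, chromosome 7, 5527147 to 5563784, minus strand), was the most abundant of the set and ranked 82 of 11582 by mean level. It was at 1630 TPM without and 1955 TPM with Dox. The fold change was 0.26 on the log2 scale, and the fragment ratio was 1.21 (interval 1.20 to 1.23). ACTG1, the gamma-actin gene (ENSG00000184009, chromosome 17, 81509971 to 81523847, minus strand), ranked 103. It was at 1153 TPM without and 1600.2 TPM with Dox, a fold change of 0.47 and a fragment ratio of 1.35 (1.33 to 1.37). Of all genes, 19.6% had a fold change as high as ACTB and 8.04% one as high as ACTG1.

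ACTG1 was thus further above its level without Dox than ACTB, and the 2 intervals do not overlap. The ratio of ACTB to ACTG1 TPM was 1.41 without Dox and 1.22 with Dox, over all transcripts. Protein-coding transcripts alone, which lie closer together, were at 1261 and 1628 TPM for ACTB and 1089 and 1513 TPM for ACTG1. The 2 coding sequences have the same length, 1128 nt, and are identical at 1029 positions (91.2%), so a program that assigns fragments has to use the remaining bases and the untranslated ends. The start of the reading frames is shown for that reason, with 60 bases each and the 10 bases at which ACTG1 differs from ACTB in capitals (GENCODE 29 transcripts).
ACTB: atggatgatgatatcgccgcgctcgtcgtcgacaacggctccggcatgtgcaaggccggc
ACTG1: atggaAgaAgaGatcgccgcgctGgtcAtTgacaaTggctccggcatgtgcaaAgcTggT
Processed pseudogenes could draw such fragments, but little was listed on them. The 9 ACTB pseudogenes summed to 0.16 and 0.72 TPM, the 19 ACTG1 pseudogenes to 2.08 and 1.16 TPM, and the 14 POTE genes, some of which carry an actin-like part, to 3.41 and 3.54 TPM.

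ACTB was listed mainly on its full-length transcript ACTB-218, at 1257 TPM without and 1621 TPM with Dox (fragment ratio 1.25, 1.24 to 1.27). The non-coding ACTB-209, of 933 nt in GENCODE 29, went the other way, from 366 to 320 TPM (0.85, 0.81 to 0.89). Its share of the gene was 22.4% without Dox and 16.4% with Dox, so the difference of the gene as a whole is smaller than that of its coding transcript. With protein-coding transcripts only, the ACTB fold change was 0.37. ACTG1-206 held 93.7% and 94.0% of ACTG1, at 1080 and 1504 TPM, and ACTG1-214, annotated as a target of nonsense-mediated decay, was at 61.6 and 83.4 TPM. ACTG1-206 and ACTG1-214 were higher with Dox by similar ratios, 1.35 and 1.32. Among minor transcripts, ACTB-207, annotated with a retained intron, was at 3.58 and 5.27 TPM (1.44, 1.12 to 1.84). ACTG1-203 was at 5.22 and 6.35 TPM (1.16, 0.75 to 1.82).

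ACTA2, the smooth muscle alpha-actin gene (ENSG00000107796, chromosome 10, 88935074 to 88991339, minus strand), was at 61.3 TPM without and 36.7 TPM with Dox. The fold change was -0.73 and the fragment ratio 0.61 (0.55 to 0.68). ACTA2 was lower than without Dox while both cytoplasmic actins were higher, and 2.23% of all genes had a fold change as low. It is a minor actin here, with 2.16% of 3-actin TPM without Dox and 1.02% with Dox. ACTA2 is a marker of smooth muscle and of myofibroblasts. Of the 8 genes on that marker list, 2 reached a mean of 1 TPM, TAGLN and SMTN, and both were higher with Dox. The list summed to 97.2 TPM without and 131 TPM with Dox.

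All 3 main ACTA2 transcripts were lower with Dox. ACTA2-201, the full reading frame of 1134 nt, was at 39.3 and 26.4 TPM (fragment ratio 0.65, 0.58 to 0.74). ACTA2-202 and ACTA2-203, models with an incomplete reading frame that begin at a far start, were at 15.2 against 8.45 TPM and 6.67 against 1.69 TPM. These share 380 and 267 bases of exon with FAS, a gene on the opposite strand, which was at 9.05 and 7.70 TPM. The strand setting of the library is not given in the sources used here, so fragments of the shared bases cannot be told apart. ACTA2-201 shares no exon base with FAS, and its difference has the same direction.

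**Figure D2:**
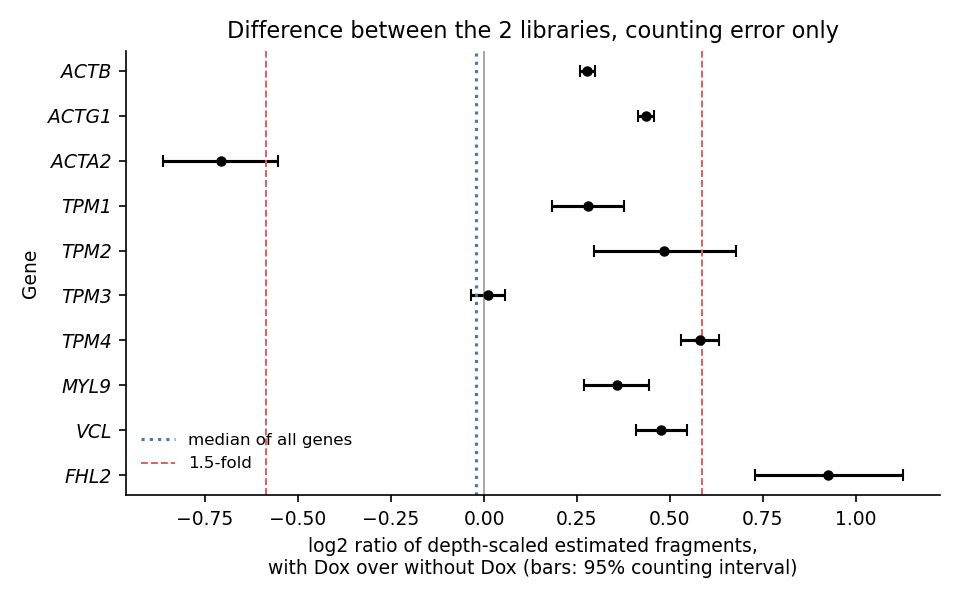
log2 ratio of depth-scaled estimated fragments, with Dox over without Dox, for the 10 genes; bars are 95% counting intervals, dashed lines mark 1.5-fold and the dotted line the median of all genes (-0.02). The intervals of 8 genes lie above 0, that of ACTA2 lies below 0, and that of TPM3 spans it. The share of all genes with an interval off 0 is not given here, so nothing is read from the count.

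The 4 tropomyosin genes summed to 585 TPM without and 698 TPM with Dox, a fragment ratio of 1.21 (1.18 to 1.24). TPM3 (ENSG00000143549, chromosome 1, 154155304 to 154194648, minus strand) was the most abundant, at 331 and 341 TPM. Its fold change was 0.04 and its fragment ratio 1.01 (0.98 to 1.04), so no difference was detectable beyond counting error. TPM4 (ENSG00000167460, chromosome 19, 16067021 to 16103005, plus strand) was at 139 and 216 TPM. Its fold change was 0.63 and its fragment ratio 1.49 (1.44 to 1.55). TPM4 was thus the tropomyosin with the largest difference in TPM, and 4.52% of all genes had a fold change as high.

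TPM2 (ENSG00000198467, chromosome 9, 35681992 to 35690121, minus strand), the beta-tropomyosin gene, was the least abundant of the 4, at 27.9 and 41.3 TPM. Its fold change was 0.55 and its fragment ratio 1.40 (1.23 to 1.60). TPM1 (ENSG00000140416, chromosome 15, 63042632 to 63071915, plus strand), the alpha-tropomyosin gene, was at 87.1 and 100.4 TPM. Its fold change was 0.20, or 0.43 with protein-coding transcripts only, and its fragment ratio 1.21 (1.13 to 1.30). The share of TPM3 in the tropomyosin TPM was 56.5% without Dox and 48.8% with Dox, and that of TPM4 was 23.8% and 31.0%. The shares of TPM1 (14.9% and 14.4%) and TPM2 (4.77% and 5.91%) differed less.

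The small net difference of TPM1 was made of opposite differences of its transcripts. TPM1-206, which starts at the distal first exon and has a long reading frame of 855 nt, was at 17.6 TPM without and 41.8 TPM with Dox (fragment ratio 2.31, 2.05 to 2.60). TPM1-208, which starts at the internal first exon and has a short reading frame of 747 nt, was at 19.8 and 12.3 TPM (0.60, 0.48 to 0.75). TPM1-214, which shares the internal start, lacks 1 exon and is annotated as a target of nonsense-mediated decay, was at 34.4 and 28.3 TPM (0.80, 0.71 to 0.90). Not every transcript followed its start: distal TPM1-201 was at 5.52 and 4.15 TPM and internal TPM1-226 at 2.94 and 5.03 TPM, and some transcripts of lower level also went the other way, such as distal TPM1-202 at 1.15 and 0.50 TPM.

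Grouped by first exon, distal TPM1 transcripts summed to 24.8 TPM without and 48.8 TPM with Dox (fragment ratio 1.93, 1.74 to 2.15). Internal TPM1 transcripts summed to 59.5 and 47.0 TPM (0.77, 0.70 to 0.85). The distal share of the gene was 28.5% without Dox and 48.6% with Dox. Such shifts were common in these libraries. Of 3205 genes whose mean reached 10 TPM and that had at least 2 first-exon groups of 10% or more, 16% had a group whose share moved by at least 15 percentage points, a step chosen after the values were seen. Among the 4 genes of the set that could be measured so, TPM1 (21.4 points) and FHL2 (20.03 points) passed it, and ACTA2 (7.99) and TPM3 (1.21) did not. The coding parts of the 2 TPM1 first exons are shown because the long and short proteins begin with them (GENCODE 29, GRCh38, plus strand).
TPM1 distal, chr15:63042830-63042943: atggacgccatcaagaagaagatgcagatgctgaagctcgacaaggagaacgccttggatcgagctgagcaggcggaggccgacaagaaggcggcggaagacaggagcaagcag
TPM1 internal, chr15:63048576-63048707: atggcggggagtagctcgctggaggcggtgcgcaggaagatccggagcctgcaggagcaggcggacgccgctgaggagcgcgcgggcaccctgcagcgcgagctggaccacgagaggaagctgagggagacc

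**Figure D3:**
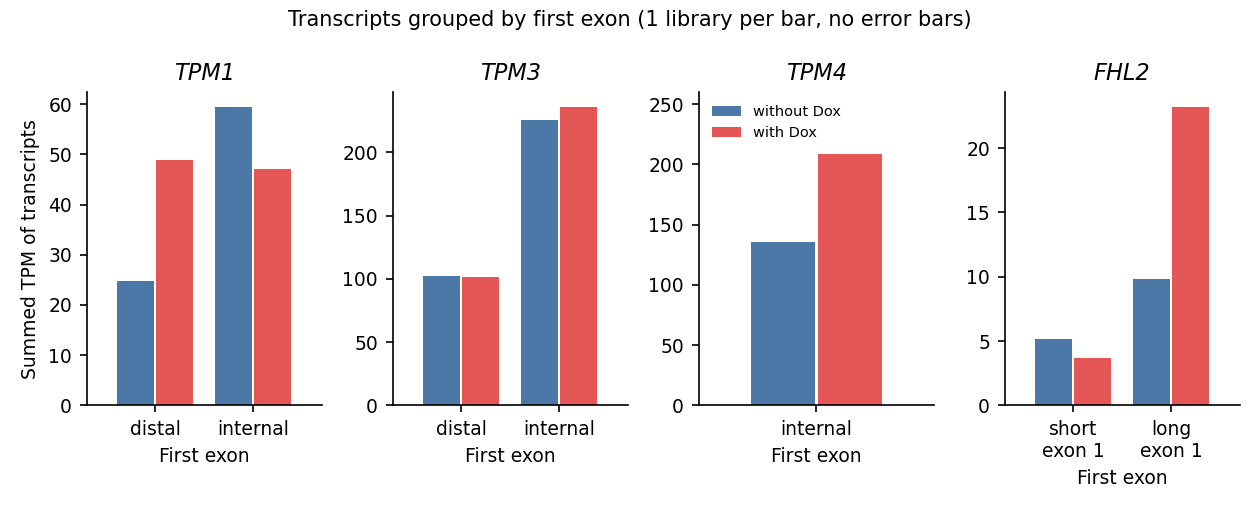
Summed TPM of the transcripts that share a first exon, for TPM1, TPM3, TPM4 and FHL2, in the library without Dox (blue) and with Dox (red), each panel with its own axis from 0. For TPM1 the distal bars are at 24.8 and 48.8 TPM and the internal bars at 59.5 and 47.0 TPM, while both TPM3 pairs are nearly level.

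TPM3 has the same arrangement of a distal and an internal start, without that difference. Its distal transcripts, nearly all TPM3-201, summed to 102 TPM without and 101 TPM with Dox (fragment ratio 0.96, 0.90 to 1.03). Its internal transcripts summed to 225 and 236 TPM (1.01, 0.98 to 1.05). TPM3-206, the most abundant, was at 151 and 156 TPM, and TPM3-219, annotated as a target of nonsense-mediated decay, was at 45.4 and 47.7 TPM. Among its minor transcripts TPM3-205 was at 19.7 and 15.5 TPM, TPM3-212 at 5.25 and 7.67 TPM and TPM3-211 at 1.45 and 6.38 TPM. The pseudogene TPM3P9 was at 2.29 and 1.79 TPM.

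TPM4 was listed almost wholly from its internal start, at 136 TPM without and 208 TPM with Dox. TPM4-219 was at 65.8 and 112 TPM (fragment ratio 1.65, 1.56 to 1.74), and TPM4-201 was at 68.1 and 95.1 TPM (1.36, 1.29 to 1.43). Both have the same reading frame length of 747 nt and differ in their ends, and both were higher with Dox. The non-coding TPM4-212 was at 2.89 and 6.20 TPM. TPM2 was listed mainly from 1 first exon (97.3% without Dox and 97.1% with Dox) and was higher in both of its main transcripts, TPM2-203 at 19.1 and 25.4 TPM and TPM2-201 at 5.87 and 10.5 TPM.

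Over the 4 genes, protein-coding transcripts with a complete long frame of 855 or 858 nt summed to 153 TPM without and 185 TPM with Dox. Those with a complete short frame of 744 or 747 nt summed to 333 and 406 TPM. The fragment ratios were alike, 1.23 (1.17 to 1.30) for the long class and 1.23 (1.20 to 1.26) for the short class. Within the long class TPM1 went from 24.5 to 46.6 TPM and TPM2 from 25.7 to 37.4 TPM, while TPM3 was at 102 and 101 TPM. Within the short class TPM4 went from 134 to 207 TPM and TPM1 from 21.9 to 13.5 TPM, while TPM3 was at 177 and 185 TPM.

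Transcripts of TPM1, TPM2 and TPM3 also differ in which of 2 alternative exons of 76 nt they carry, while TPM4 was listed with 1 such exon. In the annotation, 4 minor TPM1 transcripts, at 0.56 and 0.62 TPM in sum, carry more than 1 exon of this length. In TPM1, transcripts with the exon at 63061198 to 63061273 held 87.9% of the gene without Dox and 88.2% with Dox, so this choice stayed level while the first exons did not. In TPM2, transcripts with the exon at 35685064 to 35685139 held 68.4% and 65.2%, and those with the exon at 35684732 to 35684807 held 24.2% and 27.3%. In TPM3 the exon at 154172029 to 154172104 held 52.8% and 52.6%. The exon pairs are shown to make plain how far fragments from them can be told apart; capitals mark the bases that differ within a pair, 33 of 76 in TPM1 and 36 of 76 in TPM2 (GENCODE 29, GRCh38).
TPM1, chr15:63061198-63061273, plus strand: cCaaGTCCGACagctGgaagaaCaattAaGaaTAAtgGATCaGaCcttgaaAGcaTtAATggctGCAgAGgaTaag
TPM1, chr15:63061713-63061788, plus strand: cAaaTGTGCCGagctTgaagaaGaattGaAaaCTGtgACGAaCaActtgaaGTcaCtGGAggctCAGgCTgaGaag
TPM2, chr9:35685064-35685139, minus strand: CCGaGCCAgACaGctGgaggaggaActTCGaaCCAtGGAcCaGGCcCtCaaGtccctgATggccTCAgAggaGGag
TPM2, chr9:35684732-35684807, minus strand: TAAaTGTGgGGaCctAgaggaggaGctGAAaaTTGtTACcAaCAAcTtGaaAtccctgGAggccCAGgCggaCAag

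MYL9, a regulatory light chain of smooth muscle and non-muscle myosin (ENSG00000101335, chromosome 20, 36541484 to 36551447, plus strand), was at 86.3 TPM without and 117 TPM with Dox. Its fold change was 0.43 and its fragment ratio 1.28 (1.20 to 1.36). Both of its transcripts were higher, MYL9-202 at 57.1 and 79.6 TPM and MYL9-201, with the full frame of 519 nt, at 29.2 and 37.2 TPM. The other light chain genes of this myosin were higher too, MYL12A at 342 and 475 TPM (fold change 0.47), MYL12B at 249 and 280 TPM (0.17) and the essential chain MYL6 at 848 and 1017 TPM (0.26). MYL9 was the least abundant of these 4.

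VCL codes for vinculin, which links talin and alpha-catenin to actin at adhesions (ENSG00000035403, chromosome 10, 73995193 to 74121363, plus strand). It was at 33.6 TPM without and 48.3 TPM with Dox, a fold change of 0.51 and a fragment ratio of 1.39 (1.33 to 1.46). VCL-201 was at 22.2 and 34.6 TPM (1.52, 1.43 to 1.61) and VCL-202 at 10.98 and 13.3 TPM (1.18, 1.09 to 1.27). Both were higher, VCL-201 by more. VCL-201 has a frame of 3405 nt, with the extra exon of metavinculin, the muscle form, and VCL-202 has 3201 nt without it. The pair also differs in its 3′ end. Fragments can be assigned by either difference, and no value of the extra exon alone was measured. How much of VCL carries that exon was thus not tested. The longer end of VCL-202 shares 1109 bases with AP3M1 on the opposite strand, at 54.9 and 61.9 TPM, and how far this touches either value was not tested.

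FHL2, a scaffold of LIM domains found at adhesions and in the nucleus (ENSG00000115641, chromosome 2, 105357712 to 105438513, minus strand), was the least abundant of the 10 genes and had the largest fold change among them. It was at 15.9 TPM without and 29.1 TPM with Dox. The fold change was 0.83 and the fragment ratio 1.90 (1.66 to 2.18), and 2.45% of all genes had a fold change as high. Its counting interval overlaps that of none of the other 9 genes. With protein-coding transcripts only, the fold change of FHL2 was 0.66, close to that of TPM4 at 0.62.

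FHL2 transcripts also differed from each other. FHL2-205 was at 6.73 and 14.1 TPM (fragment ratio 2.03, 1.64 to 2.51) and FHL2-211, annotated as a target of nonsense-mediated decay, at 2.96 and 8.12 TPM (2.67, 2.03 to 3.54). FHL2-206 was at 4.55 and 1.20 TPM (0.26, 0.16 to 0.41). FHL2-205 and FHL2-206 start 1 base apart at the start with the CArG box shown above, have the same frame of 840 nt and differ in the end of the first exon, at 105398842 and 105398970. Grouped by that end, the long first exon summed to 9.79 and 23.2 TPM and the short one to 5.17 and 3.65 TPM. The short group holds FHL2-206 and FHL2-201, which went opposite ways. FHL2-201 was at 0.62 and 2.45 TPM (3.73, 1.93 to 7.92), so the lower sum of the short group comes from FHL2-206 alone. The first-exon split of FHL2 rests on few fragments, 71.8 without Dox and 23.8 with Dox for FHL2-206.

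**Figure D4:**
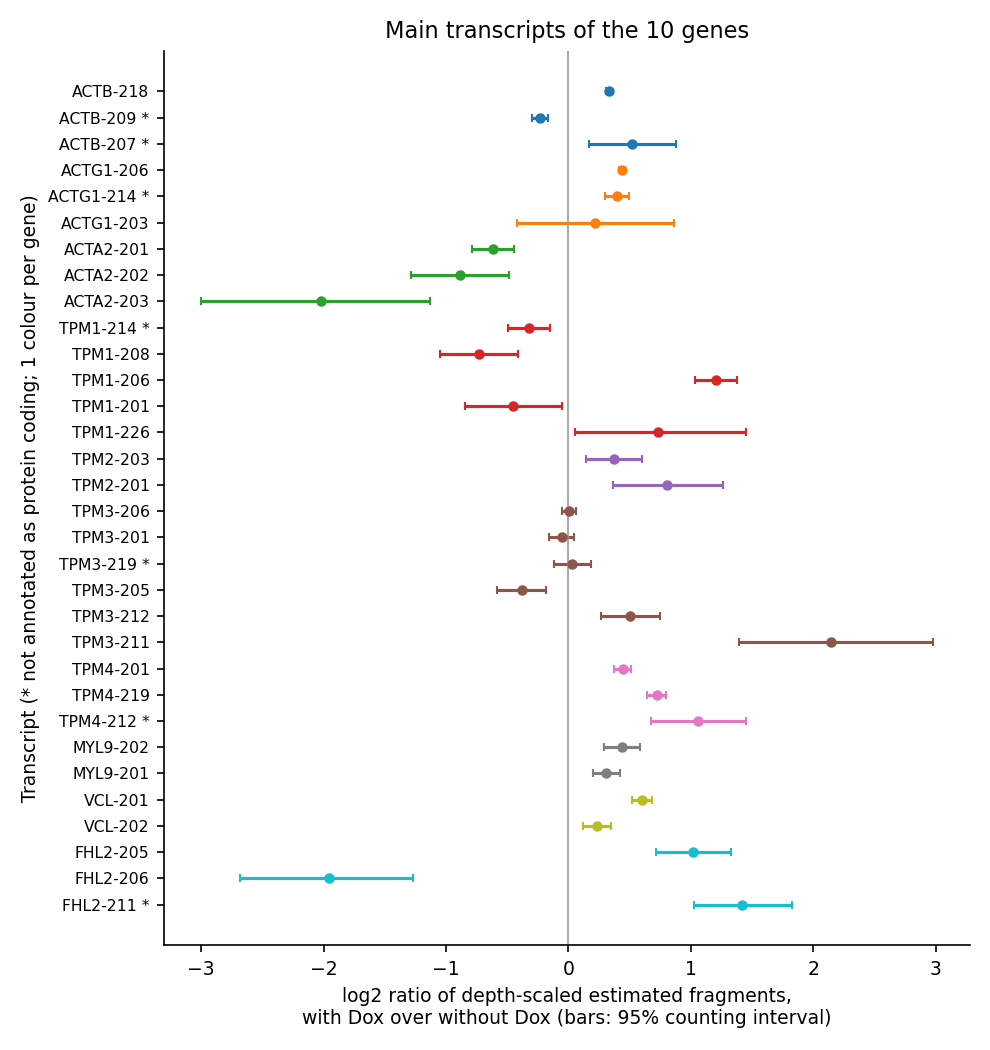
log2 ratio of depth-scaled estimated fragments, with Dox over without Dox, for the 32 transcripts with at least 5 TPM or 10% of their gene in a library; bars are 95% counting intervals and each gene has a colour. The interval lies above 0 for 19 transcripts, below 0 for 9 and spans 0 for 4. The share of all transcripts with such intervals is not given here, so these counts are only a description. ACTB, TPM1, TPM3 and FHL2 each have transcripts on both sides.

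The other 118 transcripts of the 10 genes, of 150 in all, were each at 3.41 TPM or less. They made up 19.5% of FHL2 with Dox, 12.8% of TPM2 and 8.79% of TPM1, and under 2% of each of the remaining genes. Retained-intron transcripts were at most 6.36% of a gene with Dox, in TPM2.

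The rest of the pathway is described by 8 lists, which were chosen with earlier results of these data known. Of all genes, as above, 53% were higher, 5.32% passed 1.5-fold upward and 3.9% downward, and each list count stands beside these shares. Of the genes in the list of MRTF-SRF targets, 12 also stand in another of the lists, among them LPP and TNS1 with the partners of vinculin, so the lists are not independent. SRF was at 22.5 TPM without and 27.5 TPM with Dox, a fold change of 0.28. Its cofactors MRTFA and MRTFB were at 6.44 against 8.53 TPM (0.36) and 8.03 against 11.3 TPM (0.44), and the ternary complex factor ELK1 was at 4.63 and 6.66 TPM (0.44). Of the 9 genes of this list that reached a mean of 1 TPM, the measure of presence for all lists here, 8 were higher and none by 1.5-fold. The list median was 0.28. SCAI, a repressor of MRTF, was level at 2.43 and 2.39 TPM.

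MRTF-SRF targets outside the 10 genes had a median of 0.27. Of the 30 present, 25 were higher; 5 passed 1.5-fold upward and 0 downward. FILIP1L was at 117 and 212 TPM (0.86), TAGLN2 at 2.07 and 4.58 TPM (0.86), TNS1 at 1.33 and 3.39 TPM (0.91) and TAGLN, the SM22 gene, at 48.7 and 66.4 TPM (0.44). The formin gene DIAPH1 was at 61.6 and 41.8 TPM (-0.55), the actinin gene ACTN4 at 43.0 and 30.2 TPM (-0.49) and the calponin gene CNN3 at 221 and 178 TPM (-0.31). Targets of the ternary complex branch had a median of 0.79 over 11 genes present, which all were higher, and 6 passed 1.5-fold. Of these, FOS and KLF4 (0.29 and 1.72 TPM) reached a mean of 1 TPM only through the library with Dox, a way in that is open only to genes higher with Dox, and the counts are a description. With median-of-ratios scaling 10 genes were left and the median was 0.59. That median moved with the settings, from 0.36 with no filter on low values to 0.91 with a pseudocount of 0.1 TPM. KLF6, a zinc-finger factor, was at 37.0 and 83.3 TPM (1.15), EGR1 at 2.99 and 16.5 TPM (2.14), and FOS at 0.60 and 2.74 TPM. Among the 11 genes present, IER5, ATF3 and JUNB had the smallest fold changes. IER5 was at 1.31 and 1.42 TPM (0.07), ATF3 at 9.66 and 10.2 TPM (0.07), and the fold change of JUNB was 0.32. The fragment ratio intervals of IER5 (0.78 to 1.45) and JUNB (0.99 to 1.63) span 1. No difference beyond counting error was thus detectable for IER5 and JUNB.

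**Figure D5:**
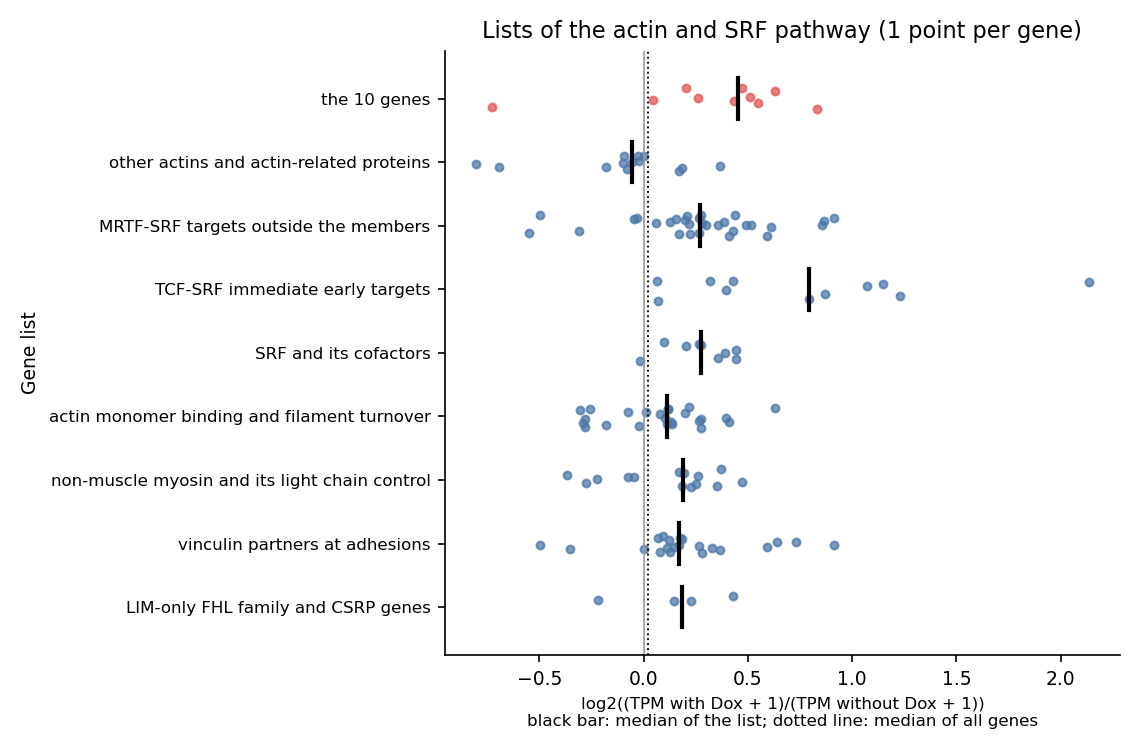
Fold changes of the 10 genes (red) and of the measured genes of 8 lists (blue), 1 point per gene with random vertical spread; black bars are list medians and the dotted line is the median of all genes (0.02). The median is 0.45 for the 10 genes, 0.79 for the ternary complex targets, 0.27 for the other MRTF-SRF targets and -0.05 for the other actins and actin-related proteins.

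Other actin genes were far less abundant than ACTB and ACTG1. The muscle actins were near 0, with ACTA1 at 1.30 and 1.26 TPM, ACTC1 listed at 0 and at 0.05 TPM, and ACTG2 at 0.06 and 0.78 TPM. Counting the actin-related proteins as well, 4 of 13 genes were higher, none by 1.5-fold, and 2 were past 1.5-fold downward. Their median was -0.05. The 2 were subunits of the Arp2/3 complex, which branches filaments: ARPC4 at 77.8 and 44.1 TPM (-0.80) and ARPC1B at 58.7 and 35.9 TPM (-0.69). ACTR3, another subunit, was at 240 and 310 TPM (0.37).

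Genes that bind monomers or turn over filaments had a median of 0.11. Of 24 genes, 16 were higher and 1 passed 1.5-fold: TMSB10, a thymosin that sequesters monomers, at 1381 and 2140 TPM (0.63). The severing protein gelsolin, GSN, was at 91.3 and 73.7 TPM (-0.30). Non-muscle myosin and its regulators had a median of 0.19. Of 14 genes, 9 were higher and none passed 1.5-fold. The kinase ROCK2 was at 131 and 169 TPM (0.37) and the heavy chain MYH10 at 70.4 and 58.0 TPM (-0.28).

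Partners of vinculin at adhesions had a median of 0.17. Of 21 genes, 19 were higher and 4 passed 1.5-fold, both counted in TPM. PTK2 counts as higher at 81.5 and 81.6 TPM, and some others of the 19 had a fragment ratio below 1. BCAR1, the scaffold p130Cas, was at 13.6 and 23.1 TPM (0.73) and PARVA, alpha-parvin, at 12.9 and 20.7 TPM (0.64). Their fragment ratios were 1.58 (1.43 to 1.74) and 1.36 (1.22 to 1.51). LPP and TNS1, which also passed 1.5-fold, had no fragment ratio. ACTN4, given above, and TLN2, at 10.7 and 8.18 TPM (-0.35), were lower. The fragment ratio of TLN2 went the other way, at 1.12 (1.03 to 1.22). The list of FHL, CSRP and LMO genes had a median of 0.19 over 4 genes (-0.04 with no filter on low values). Of the FHL genes in it only FHL3 was present, at 7.03 and 9.83 TPM (0.43). CSRP1 at 49.7 and 58.3 TPM (0.23) and LMO7 at 122 and 135 TPM (0.14) were higher too. LMO4 was lower, at 21.7 and 18.5 TPM (-0.22).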

How the data were processed

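The authors deposited TPM values for 184844 transcripts in 1 table of 2 libraries; Salmon, Trimmomatic and GRCh38.p13 are named per the submitters' processing notes, with versions, options and annotation not given in the sources used here. Transcripts were matched by identifier without version to GENCODE release 29 (161798 matched, 93.3% of the TPM in each library), so fragments on newer transcripts of a gene are missed. Of the 150 transcripts of the 10 genes, 48 have another version number in the table; their lengths, and so their fragment numbers, are approximate. Salmon shares fragments among similar transcripts, which can move values between isoforms. Fold changes used a pseudocount of 1 TPM and kept genes whose mean reached 1 TPM. The value of 1 fragment was fitted on single-transcript genes of at least 600 nt (length offset 300 nt). Of the low values, 86.0% (without Dox) and 86.2% (with Dox) came within 0.1 of whole fragments after a fit to those same values. The fit was tested on simulated whole fragments, drawn with the same offset of 300 nt and the estimated depths. Such a test shows at most that a step of this kind can be recovered. It cannot show that the deposited values follow the same model. Results were recomputed under 9 alternative settings, given in the closing section. Python 3.11.15, pandas 2.3.3, SciPy 1.17.1 and Biopython 1.88 were used.

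All 10 genes are named, with each transcript of at least 5 TPM or 10% of its gene. Of each list, genes came from the 3 largest and 3 smallest fold changes, with SRF, MRTFA, MRTFB, the muscle actins, the other myosin light chains, TAGLN and CNN1 whatever their value. KLF4, LPP, TPM3P9, FAS, AP3M1 and TPM1-202 were named after their values were seen. The 10 genes, lists and markers were chosen with earlier results of these data known. Of the lists, 1 is not reported here. ZYX was not matched and was not analysed here. Fibroblast markers summed to 6.52 and 8.24 TPM and striated muscle markers to 11.4 and 17.1 TPM.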

Additional observations from a re-analysis of the deposited data

How the results depend on the processing

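No paired analysis was possible because there is 1 library per group and the labels carry no replicate number; for the same reason no library could be left out. All 10 genes kept their direction under the 9 alternative settings, ACTA2 and FHL2 stayed past 1.5-fold in each, and TPM4 was past it in all but estimated fragments (0.58 on the log2 scale). The count of genes at least 1.5-fold higher was 2 as reported and 1 in estimated fragments. The share of all genes at least 1.5-fold higher was 5.32% as reported. It was 7.23% with a pseudocount of 0.1 TPM, 2.03% with 5 TPM, 4.88% with no filter on low values, 3.72% with a minimum mean of 5 TPM, 5.90% without mitochondrial transcripts in the total, 4.88% with a median-of-ratios scaling, 4.66% with protein-coding transcripts only, 4.26% without transcripts listed at 0 in 1 library and at 1 TPM or more in the other, and 4.60% in estimated fragments. The cause of these moves was not tested. With protein-coding transcripts only, the fold change was 0.43 for TPM1, 0.37 for ACTB and 0.66 for FHL2. The median of the list of FHL, CSRP and LMO genes ranged from -0.04 to 0.20. Of 114 recomputed transcript shares, 79 moved beyond counting error. Those settings change what a share measures, because fragments weigh long transcripts more and coding-only shares leave other transcripts out. The share of ACTB-218 without Dox was 77.1% as reported and 99.7% over coding transcripts only. The count is thus no measure of how stable the isoform values are. Few fragments lay behind FHL2-206 and ACTA2-203.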
